A study of Mus musculus with 12 samples.

Results

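Restoring MAVS was examined in tumours whose hosts had all received an inhibitor of the mitotic kinase MPS1. The comparison set 3 libraries from MAVS reconstituted tumours against 3 libraries from MAVS knockout tumours, which are 6 of the 12 RNA sequencing libraries of the series. The 6 were chosen by their genotype and treatment labels and by no measured value. Each tumour had grown from a flank injection beneath the skin of 393P, a line of mouse lung cancer cells, in male 129S2/SvPasCrl mice that were 8 weeks old. All 6 tumours were exposed to BAY-1217389, the MPS1 inhibitor, which the mice received at 5 mg/kg 2 times daily for 2 days before the tumours were taken on the next day. The other 6 libraries, 3 of each genotype with the treatment labelled control, entered the statistical fit and are shown for comparison. The titles call the knockout group Luc, a name that is not explained in the sources used here, and the labels do not say whether either cell population was a single clone. Because each genotype is a different injected population of cells, an effect of MAVS cannot be told apart from any other difference between the 2 populations. Nothing in the labels describes a change to Mavs in the host mice, whose own cells are part of a tumour piece. The labels call the samples replicates without saying that each came from its own animal, and the p-values measure only the spread between these samples.

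MAVS is an adaptor protein on the outer mitochondrial membrane. The cytosolic helicases RIG-I (gene Ddx58) and MDA5 bind double-stranded or unprocessed RNA and pass the signal to MAVS, which through kinases activates interferon regulatory factors and NF-kB and so induces type I interferons. Secreted interferon acts back on the same and on neighbouring cells: its receptor activates a complex that contains Stat2 and Irf9, and this complex switches on the interferon-stimulated genes, whose products block viral replication, edit or degrade RNA and raise antigen presentation. MPS1 (gene Ttk) is a kinase of the spindle checkpoint, and cells in which it is inhibited divide with missegregated chromosomes.

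The upstream sequences of genes called higher in the reconstituted tumours are shown first, because many of them held the short core of the element that the Stat2 and Irf9 complex binds, the interferon-stimulated response element. The core was searched as GAAANNGAAA on both strands of the window from 250 bases before to 50 bases after each gene's start, with overlapping matches allowed (RefSeq sequences, build GRCm38.p6). Capitals mark every match, in the orientation of the gene, so that a match on the opposite strand reads as the reverse complement. The genes are antiviral effectors (Ifit1, Oas1g, Isg15, Bst2), a transcription factor of the pathway (Stat2) and a granzyme of cytotoxic lymphocytes (Gzma).
Ifit1: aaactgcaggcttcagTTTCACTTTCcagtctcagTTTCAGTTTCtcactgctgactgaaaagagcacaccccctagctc
Oas1g: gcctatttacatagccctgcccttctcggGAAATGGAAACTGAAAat
Isg15: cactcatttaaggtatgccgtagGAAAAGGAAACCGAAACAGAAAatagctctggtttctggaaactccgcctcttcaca
Bst2: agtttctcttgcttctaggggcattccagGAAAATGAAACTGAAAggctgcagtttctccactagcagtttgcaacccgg
Stat2: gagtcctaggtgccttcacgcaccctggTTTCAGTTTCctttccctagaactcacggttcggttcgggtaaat
Gzma: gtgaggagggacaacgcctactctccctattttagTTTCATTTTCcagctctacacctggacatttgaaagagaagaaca

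The window of Ifit1 lies at chr19:34640769-34640848 (plus strand), that of Oas1g at chr5:120887614-120887660 (minus strand), that of Isg15 at chr4:156200840-156200919 (minus strand), that of Bst2 at chr8:71537552-71537631 (minus strand), that of Stat2 at chr10:128270248-128270320 (plus strand) and that of Gzma at chr13:113101034-113101113 (minus strand). Each lies upstream of the gene's annotated RefSeq span and outside it. Isg15 carried 3 matches in its window and Ifit1 carried 2. Of the 116 genes called in this comparison 83 had a promoter sequence. The core was present in 26 of 69 genes called higher (37.7%), against 501 of all 12990 tested genes with a promoter (3.86%) and 1 of 14 genes called lower (7.14%). Among genes that were not called but whose 3 reconstituted libraries all lay above the 3 knockout libraries, 114 of 1288 held it (8.85%). The core of the gamma-activated site, searched as TTCNNNGAA, was present in 12 of the 69 (17.4%) against 8.58% of all tested genes with a promoter. A match describes these letters only and does not show that a factor was bound.

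The 12 libraries held 52983715 to 69108411 counts each, and 17885 genes were tested. The 6 libraries compared held 55026669 to 62931443 counts, so that 3 counts were worth 0.0461 to 0.0593 CPM (the unit of library-scaled counts, here with TMM factors that correct for composition). No pair of libraries of a group agreed within sampling noise. The knockout pairs with inhibitor differed by an SD of 0.590 to 0.591 on the log2 CPM scale over genes, whereas the reconstituted pairs differed by 0.658 to 0.966, the largest value lying between replicates 1 and 3. Reconstituted replicate 1 also had the lowest TMM factor (0.920) and the fewest genes with a count (20613). Skeletal muscle markers summed to 1045, 244 and 565 CPM in the knockout libraries and to 3503, 536 and 109 CPM in the reconstituted ones, and fibroblast and pericyte markers to 10317, 18219 and 13521 CPM against 4223, 11526 and 9797 CPM. Reconstituted replicate 1 was thus the highest of the 6 for muscle and the lowest for fibroblast markers. Of the epithelial and lung tumour markers, Epcam (159.7, 192 and 193 CPM in knockout, 147, 142 and 128 CPM in reconstituted libraries) and Cdh1 (199, 246 and 221 CPM and 172, 207 and 240.0 CPM) were present in all 6, and the lung lineage genes Nkx2-1 and Sftpc were too low to be tested.

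Under MPS1 inhibition 93 of 17885 genes were called higher in the reconstituted tumours (0.52%) and 23 were called lower (0.129%), by edgeR's quasi-likelihood F-test with a Benjamini-Hochberg adjusted p below 0.05. The smallest adjusted p was 0.00754, and 3523 of the 17885 genes had an unadjusted p below 0.05 by the same test. The median log2 difference over all tested genes was 0.01, and 51.1% of them were positive. The 3 reconstituted libraries lay above the 3 knockout libraries in 1949 genes (10.9%) and below them in 1748 (9.77%). All 116 called genes belonged to these, so their direction was fixed by that separation when a library was left out. The genes called higher differed by more: their median was 1.91 on the log2 scale, 68 exceeded 1 and 43 exceeded 2, while the genes called lower had a median of -0.79 and 5 went beyond 1. The highest of the reconstituted libraries was replicate 1 in 68 of the 93 genes, and the lowest was replicate 2 in 61.

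**Figure D1:**
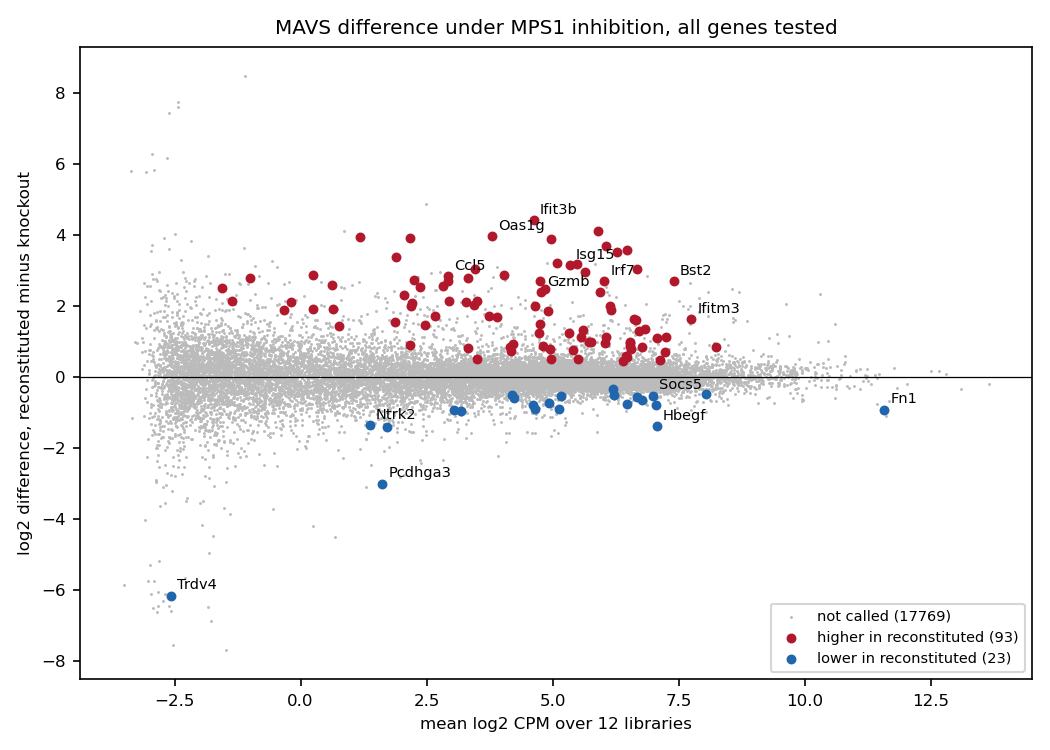
Log2 difference of reconstituted minus knockout tumours under MPS1 inhibition (vertical axis) against the mean log2 CPM over 12 libraries (horizontal axis), 1 point per tested gene. The 93 genes called higher (red) reach 4.44 at Ifit3b, and most of the 23 called lower (blue) lie between 0 and -1, with Pcdhga3 at -3.00 and Trdv4 at -6.16, the last a fitted value with 0 counts in every reconstituted library.

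The number of calls moved with single libraries. Without knockout inhibitor replicate 1, 2 or 3 it was 2, 5 or 0 by the same edgeR test. The count of 0 stood beside 3340 genes at an unadjusted p below 0.05 and a smallest adjusted p of 0.0704, so each call below was lost in at least that fit. Without reconstituted inhibitor replicate 1, 2 or 3 there were 16, 225 or 2816 calls, the last split into 1326 higher and 1490 lower. Leaving out control libraries, which enter through the shared estimate of spread, gave 94, 92 and 58 calls for the knockout replicates 1 to 3 and 52, 92 and 223 for the reconstituted replicates 1 to 3. All 116 genes kept their sign in each of these fits. DESeq2, with size factors and its own dispersion model, called 1243 of the 17885 genes (738 higher and 505 lower), 114 of the 116 among them. Its counts within lists below are to be read against these numbers.

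Mavs itself, gene ID 228607 at chr2:131234063-131248025 of GRCm38.p6, had 43.5, 39.4 and 41 CPM in the knockout libraries and 50.1, 53.8 and 62.8 CPM in the reconstituted libraries. The groups did not overlap, and the log2 difference of 0.43 ± 0.13 (SE) did not pass (edgeR adjusted p = 0.126). Counts per gene include transcripts of host cells and do not show whether a transcript of the edited gene encodes a protein. Ttk, the gene of the inhibited kinase, was at 20.1, 18.1 and 17.5 CPM and 15.2, 18.6 and 18.8 CPM, and the groups overlapped (-0.08 ± 0.13, edgeR adjusted p = 0.734).

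Among the sensors that feed MAVS and the proteins around them, 4 of 29 tested genes were called higher (0.52% of all genes were) and none lower, with a list median of 0.22 on the log2 scale. This and the other gene lists were written with earlier results of these data known, so their shares are a description and not a test. Ddx58, the gene of RIG-I, was read at 37.8, 46.7 and 42.1 CPM in knockout and 99, 73.1 and 105 CPM in reconstituted libraries. Every reconstituted library was above every knockout one, and the log2 difference was 1.13 ± 0.19 (SE, edgeR adjusted p = 0.0316). Dhx58 encodes LGP2, a helicase of the same family without a signalling domain. It stood at 4.38, 6.09 and 4.58 CPM and 24.2, 18.5 and 19 CPM (2.03 ± 0.33, adjusted p = 0.0281), again without overlap. Trim25, a ubiquitin ligase that acts on RIG-I, stood at 66.7, 71.1 and 73.1 CPM and 141, 109 and 117 CPM (0.80 ± 0.12, adjusted p = 0.0214). Adar, which edits double-stranded RNA and limits its recognition, stood at 67.9, 69.1 and 64.9 CPM and 123, 99.6 and 146 CPM (0.87 ± 0.16, adjusted p = 0.0399). For cytosolic DNA sensing and STING, 1 of 13 tested genes was called: Ifi204, an Ifi200 family gene whose product binds DNA, at 93.2, 115 and 113 CPM against 289, 171 and 240.1 CPM (1.13 ± 0.21, adjusted p = 0.0399). That list had a median of 0.27.

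Of the interferon regulatory factors and STAT proteins, 3 of 17 were called higher (0.52% of all genes were), and the list median was 0.51. Irf7, a factor that amplifies type I interferon production, was read at 14.8, 31.3 and 18.9 CPM in the knockout and 173, 146 and 106 CPM in the reconstituted libraries, which did not overlap (2.71 ± 0.45 log2, SE, edgeR adjusted p = 0.0316). Stat2 and Irf9, parts of the complex that binds the element shown above, were also higher. Stat2 read 41.8, 69.3 and 52.8 CPM against 175, 139 and 199 CPM (1.65 ± 0.28, adjusted p = 0.0316), with its largest value in reconstituted replicate 3. Irf9 read 23.8, 36 and 33.3 CPM against 77.8, 57.3 and 70.2 CPM (1.14 ± 0.20, adjusted p = 0.0321).

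Transcripts of the type I and lambda interferons were near the lower limit of detection. Ifng, the gene of interferon gamma, was tested among the genes of cytotoxic lymphocytes described below and was not called. Ifnb1, the gene of interferon beta, had 2, 3 and 0 counts in the knockout inhibitor libraries and 0, 2 and 0 in the reconstituted ones. The interferon alpha and lambda genes counted had 0 to 2 counts in each of the 12 libraries, and none was tested. At this depth a difference in these genes was not detectable. Of the 17 tested ligand, receptor, kinase and feedback genes 2 were called higher (0.52% of all genes were), both inhibitors of the signal. Usp18, which removes ISG15 and blocks the type I receptor, was at 7.78, 11.4 and 12.1 CPM in knockout and 84.1, 50.9 and 41.8 CPM in reconstituted libraries (2.50 ± 0.36, edgeR adjusted p = 0.0210). Ptpn6, the phosphatase SHP-1 of blood cells, was at 71.7, 73 and 73 CPM and 106, 92.5 and 102 CPM, a smaller difference between groups that were each narrow (0.46 ± 0.08, adjusted p = 0.0329).

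The largest block of calls was among the antiviral effectors that type I interferon induces: 37 of 68 tested genes were called higher and none lower, against 0.52% and 0.129% of all genes. The list median was 1.93, 66 of 68 members were positive, and in 65 the reconstituted libraries all lay above the knockout ones (10.9% of all genes). The median ran from 1.67 to 2.09 when single libraries were left out, the lowest without reconstituted replicate 1, while the number called ran from 0 to 60. Ifit3b and Ifit3, whose proteins of the IFIT family take part in blocking translation of viral RNA, led it. Ifit3b was read at 2.18, 3.64 and 2.86 CPM in the knockout libraries and 98.6, 45.1 and 44.2 CPM in the reconstituted ones, with replicate 1 well above the others (4.44 ± 0.58 log2, SE, edgeR adjusted p = 0.0147). Ifit3 was read at 7.65, 11.2 and 7.95 CPM and 249, 105 and 111 CPM (4.12 ± 0.56, adjusted p = 0.0168). The 2 genes are near copies, and how the counting shared reads between such copies is not stated, so their separate values are uncertain. Ifit1, which binds RNA with a foreign 5′ end, had 4.41, 6.07 and 3.39 CPM and 95.2, 56.6 and 56.5 CPM (3.91 ± 0.52, adjusted p = 0.0164).

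**Figure D2:**
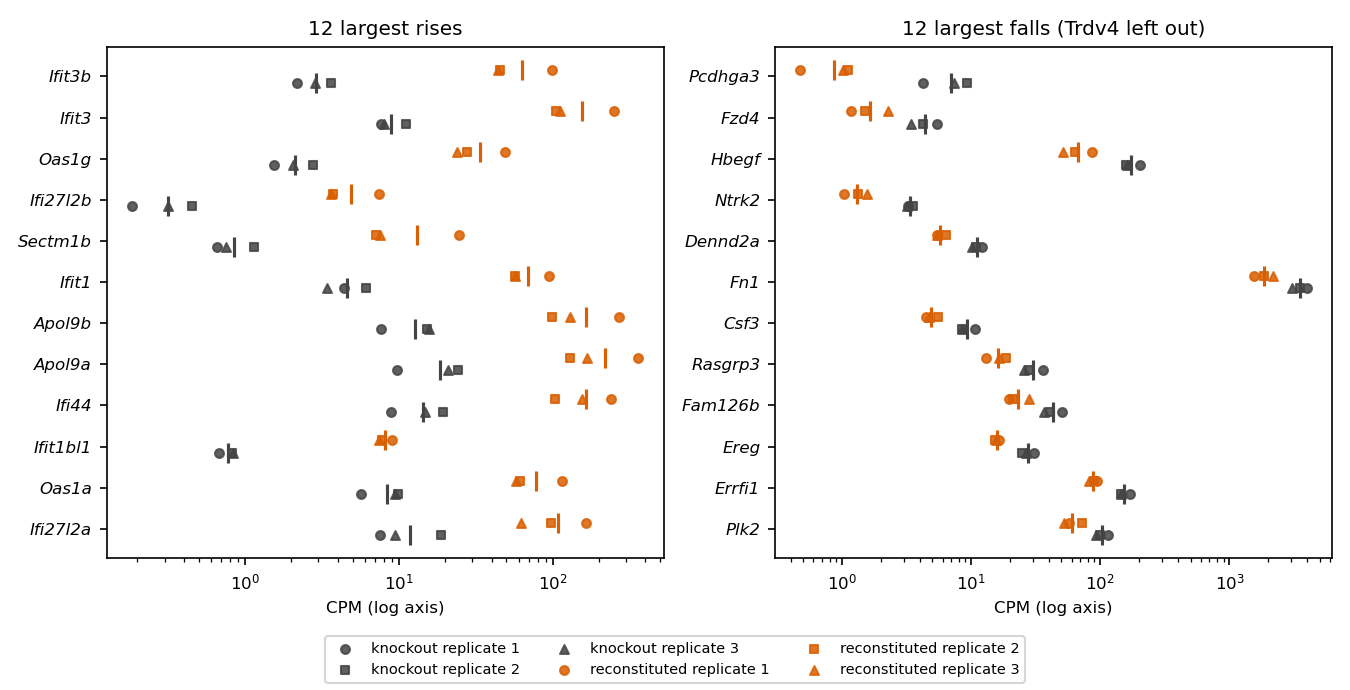
CPM on a log axis in each of the 6 libraries for the 12 largest rises (left) and 12 largest falls (right) among the called genes, leaving out predicted genes and genes averaging under 1 log2 CPM (Trdv4 among them). Grey marks knockout and orange reconstituted tumours, symbols mark the replicate and vertical ticks the group means. No gene shown has overlapping groups, and reconstituted replicate 1 (orange circle) is the highest library for most of the rises.

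The oligoadenylate synthetase genes, whose products activate the RNA-degrading enzyme RNase L, had the smallest adjusted p. Oas1g was read at 1.54, 2.77 and 2.06 CPM in the knockout and 48.7, 27.8 and 23.9 CPM in the reconstituted libraries (3.98 ± 0.38, edgeR adjusted p = 0.00754). Oas2 followed at 3.87, 6.12 and 2.99 CPM and 34.6, 26.5 and 35.3 CPM (2.89 ± 0.32, adjusted p = 0.00928), and here replicate 3 was as high as replicate 1. Oas1a had 5.69, 9.93 and 9.38 CPM and 114, 61.5 and 57.2 CPM (3.22 ± 0.39, adjusted p = 0.0133). Oas3, Oas1b, Oasl1 and Oasl2 were called too, with log2 differences of 2.39, 2.58, 2.54 and 3.06. The Oas1 genes are close copies of each other, with the same uncertainty as for the Ifit3 pair. Without knockout inhibitor replicate 3 the adjusted p of Oas1g was 0.0704, the smallest of any gene in that fit, and over all alternatives it ran from 1.64e-27 (DESeq2) to that value.

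Isg15, a ubiquitin-like modifier, was read at 6.56, 15.1 and 10.8 CPM in the knockout and 149, 76.9 and 65.8 CPM in the reconstituted libraries (3.17 ± 0.53, edgeR adjusted p = 0.0316). Bst2, the gene of tetherin, which holds budding virus at the cell surface, had 35.3, 77.1 and 67.7 CPM and 638, 277 and 261 CPM (2.71 ± 0.50, adjusted p = 0.0377), the highest levels among the called genes with a log2 difference over 2. Mx2 had 1.37, 1.33 and 1.68 CPM and 12.8, 9.11 and 7.20 CPM (2.73 ± 0.33, adjusted p = 0.0133), and its relative Mx1 a difference of 2.33. Intact Mx genes encode antiviral GTPases, but the gene classes supplied with the deposited counts list both of these, and Oas1b, as transcribed pseudogenes. Among the less studied members, Ifi44 had 8.91, 19.3 and 14.9 CPM and 238, 103 and 155 CPM (3.52 ± 0.56, adjusted p = 0.0274). Sectm1b, a secreted and membrane protein gene, had 0.661, 1.15 and 0.751 CPM and 24.5, 7.11 and 7.57 CPM (3.93 ± 0.67, adjusted p = 0.0317), and replicate 1 stood far above the other reconstituted libraries. Ifi27l2a (3.19), Ifi27l2b (3.95), Ifit1bl1 (3.38), Ifit2 (2.70), Cmpk2 (3.05) and Rtp4 (2.97) were called with differences of similar size. The apolipoprotein L copies Apol9a (3.57) and Apol9b (3.69) share much of their sequence and are uncertain as single genes.

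The smaller differences among the called effectors included Samd9l, a growth suppressor that restricts poxviruses, at 47.6, 47 and 44.5 CPM against 149, 102 and 174 CPM (1.61 ± 0.21, edgeR adjusted p = 0.0147). Ifitm3, a membrane protein that hinders virus entry, had 96.7, 152 and 138 CPM against 599, 305 and 295 CPM (1.63 ± 0.31, adjusted p = 0.0462). The Schlafen genes Slfn1 (1.51), Slfn2 (1.31) and Slfn8 (2.10), Trim30a (2.01), Xaf1 (1.88), Phf11b (2.16), Phf11d (1.72), Sp100 (1.23), Tor3a (0.99) and Helz2 (0.95) completed the list of calls. Schlafen, Phf11 and Trim30 genes also have close copies beside them. All 37 called effectors are named here; Isg15, Ifitm3 and Samd9l were picked for their values per library after these were seen, outside the rule for named genes, as were the effectors given by log2 difference alone other than Ifi27l2a, Ifi27l2b, Ifit1bl1, Apol9a and Apol9b.

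The genes that interferon gamma induces most strongly, mainly the guanylate-binding proteins and immunity-related GTPases that attack intracellular pathogens, were all higher in value but gave no call. Their median log2 difference was 2.13, against 1.93 for the type I effectors, and all 26 tested members were positive. By edgeR the smallest adjusted p was 0.0698, and up to 5 were called when 1 library was left out. An unadjusted p below 0.05 was found for 25 of 26, against 3523 of all 17885 genes. DESeq2 called 17 of the 26 higher, where it called 738 of all 17885 genes higher, and limma-voom called 0. The median SE was 0.633, compared with 0.342 for the type I effectors and 0.175 over all tested genes. Their CPM summed to 1639, 3799 and 2843 in the knockout and 15979, 5710.0 and 14493 in the reconstituted libraries, so reconstituted replicate 2 was the lowest of its group by far and all 3 were above the knockout libraries. Gbp8, a guanylate-binding protein gene, had 14.1, 18.5 and 16.6 CPM and 68, 39.1 and 70.7 CPM (1.85 ± 0.42, adjusted p = 0.0698). Wars, the tryptophan tRNA ligase gene, had 77.2, 115 and 88.1 CPM and 739.8, 173 and 331 CPM (2.15 ± 0.52, adjusted p = 0.0823). The core of the response element was in 11 of 14 promoters of this list (78.6%), and in 24 of 53 of the type I list (45.3%). The core of the gamma-activated site was in 8 of the 14 (57.1%) and in 6 of the 53 (11.3%), against 8.58% of all tested genes with a promoter. Some genes respond to both kinds of interferon, so the 2 lists do not separate the ligands.

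**Figure D3:**
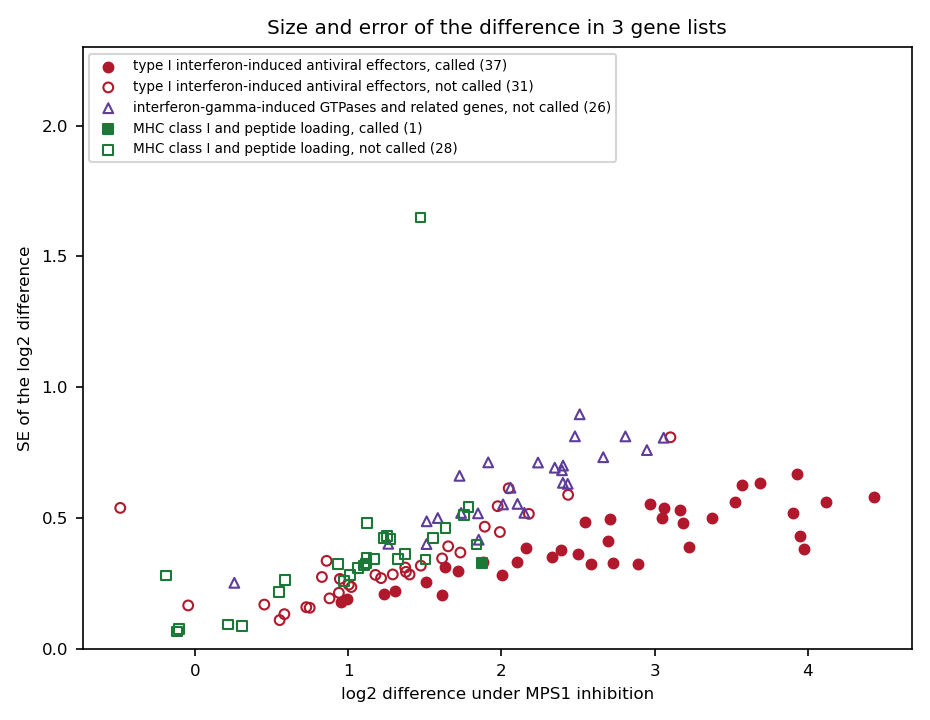
Standard error of the log2 difference (vertical axis) against the difference itself (horizontal axis) for each tested gene of 3 lists under MPS1 inhibition, filled where called. The 26 genes of the interferon-gamma list (triangles) reach differences as large as many called type I effectors (circles), with larger errors, and none of them is filled.

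Antigen presentation by MHC class I, which shows peptides to CD8 T cells, had 1 call among 29 tested genes and a median of 1.12. In 24 of the 29 the reconstituted libraries lay above the knockout ones, against 10.9% of all genes, and 0.52% of all genes were called higher. The call was H2-T24, a non-classical class I gene, at 12.2, 19.6 and 14.8 CPM in knockout and 61.8, 48.7 and 60.2 CPM in reconstituted libraries (1.88 ± 0.33, edgeR adjusted p = 0.0321). MHC genes are similar to each other, and reads may be split between them. The summed CPM of the list was 5406, 7599 and 7668 against 16459, 10892 and 12850.1. MHC class II genes had no call among 12 (median 0.35, smallest adjusted p 0.128, 2 genes at an unadjusted p below 0.05, 2 called by DESeq2 and 0 by voom). Of all 17885 genes, 3523 had an unadjusted p below 0.05 by edgeR and DESeq2 called 1243. Of that list the thiol reductase Ifi30 was at 126, 176 and 166 CPM and 282, 238 and 199 CPM (0.62 ± 0.19, adjusted p = 0.128).

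Genes of cytotoxic lymphocytes and NK cells gave 5 calls among 27 tested members, all higher, with a median of 1.61 and 20 members whose reconstituted libraries all lay higher. Over all genes 0.52% were called higher and 10.9% were separated in this way. Gzmb, a granule protease that starts apoptosis in target cells, was read at 6.90, 9.06 and 15 CPM in the knockout and 51.1, 57.4 and 54.2 CPM in the reconstituted libraries (2.39 ± 0.39, edgeR adjusted p = 0.0284). Prf1, the pore former perforin, was read at 1.54, 1.74 and 2.85 CPM and 9.62, 17.3 and 13.3 CPM (2.72 ± 0.46, adjusted p = 0.0316). In both genes reconstituted replicate 2, the lowest library for many interferon-stimulated genes, was the highest. Gzma, another granzyme, had 1.92, 4.02 and 3.83 CPM and 19.5, 29.5 and 19.1 CPM (2.80 ± 0.54, adjusted p = 0.0462), again highest in replicate 2. Cst7, an inhibitor of the proteases that activate granzymes, had 0.922, 1.15 and 1.14 CPM and 2.49, 3.72 and 2.59 CPM (1.45 ± 0.21, adjusted p = 0.0210). Ccl5, a chemokine made by lymphocytes and by interferon-treated cells, had 1.55, 2.70 and 3.51 CPM and 27.4, 15 and 13.6 CPM (2.85 ± 0.48, adjusted p = 0.0316), with replicate 1 highest. Summed, the list came to 90.8, 90.3 and 132 CPM in the knockout and 220.1, 299 and 232 CPM in the reconstituted libraries. In bulk tissue more cells of a type and more RNA per cell cannot be told apart.

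T cell markers had no call among 23 tested genes (median 0.81, smallest adjusted p 0.0765, 10 genes at an unadjusted p below 0.05). Cd3e was at 1.63, 1.35 and 2.29 CPM in knockout and 3.56, 4.29 and 3.26 CPM in reconstituted libraries (1.08 ± 0.31, edgeR adjusted p = 0.119), and Cd3d at 1.58, 1.47 and 2.18 CPM and 2.51, 3.73 and 2.89 CPM (0.80 ± 0.25, adjusted p = 0.132). The summed markers overlapped between groups, at 318, 356 and 388 CPM against 249, 431 and 414 CPM. By member, 21 of 23 were positive. In 10 of the 23 the reconstituted libraries all lay above the knockout ones, as in 10.9% of all genes. Macrophage and monocyte markers had no call among 22 (median 0.26, smallest adjusted p 0.0649, 10 at an unadjusted p below 0.05): Csf1r was at 160.3, 191 and 181 CPM and 180.1, 184 and 202 CPM, and Ly6c2 at 23.8, 35.8 and 43.3 CPM and 90.7, 112 and 78.9 CPM (1.45 ± 0.31, adjusted p = 0.0649). The only call among 14 dendritic cell markers was Bst2, which is also an effector of type I interferon (0.52% of all genes were called higher). Of the 14, 10 were positive and 4 negative. The defining markers Flt3 (-0.12, edgeR adjusted p = 0.885) and Zbtb46 (-0.25, adjusted p = 0.376) were among the negative ones, with overlapping groups. Neutrophil markers gave no call among 12 (smallest adjusted p 0.11, 2 at an unadjusted p below 0.05), and their median of 0.05 changed sign when single libraries were left out, from -0.22 to 0.19. B and plasma cell markers gave no call among 8 tested (smallest adjusted p 0.145, 2 at an unadjusted p below 0.05). DESeq2 called 7 T cell markers higher, 4 macrophage markers higher and 1 lower, 1 neutrophil marker higher and 0 B cell markers, and voom called 1 macrophage marker and 0 of the others. For comparison, DESeq2 called 738 of all 17885 genes higher and 505 lower, and 3523 had an unadjusted p below 0.05 by edgeR.

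Chemokine ligands had Ccl5 as their only call among 25 (median 0.55, falling to 0.25 without reconstituted replicate 1), where 0.52% of all genes were called higher. Of 19 checkpoint ligands and receptors 1 was called, Lgals9, which encodes galectin-9, a ligand of the inhibitory receptor TIM-3. It was read at 84.9, 95.2 and 106 CPM in the knockout and 285, 167 and 169 CPM in the reconstituted libraries (1.12 ± 0.19, edgeR adjusted p = 0.0321), and 18 of the 19 members were positive with a median of 0.76. Cell death and pyroptosis genes had no call among 21 (median 0.52, 14 at an unadjusted p below 0.05, 10 called higher and 1 lower by DESeq2, 0 by voom). Over all 17885 genes 3523 had such a p by edgeR, and DESeq2 called 738 higher and 505 lower. The death ligand gene Tnfsf10 (TRAIL) was closest, at 3.90, 5.34 and 4.58 CPM and 29.5, 13.2 and 26.1 CPM (2.32 ± 0.50, adjusted p = 0.0675).

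**Figure D4:**
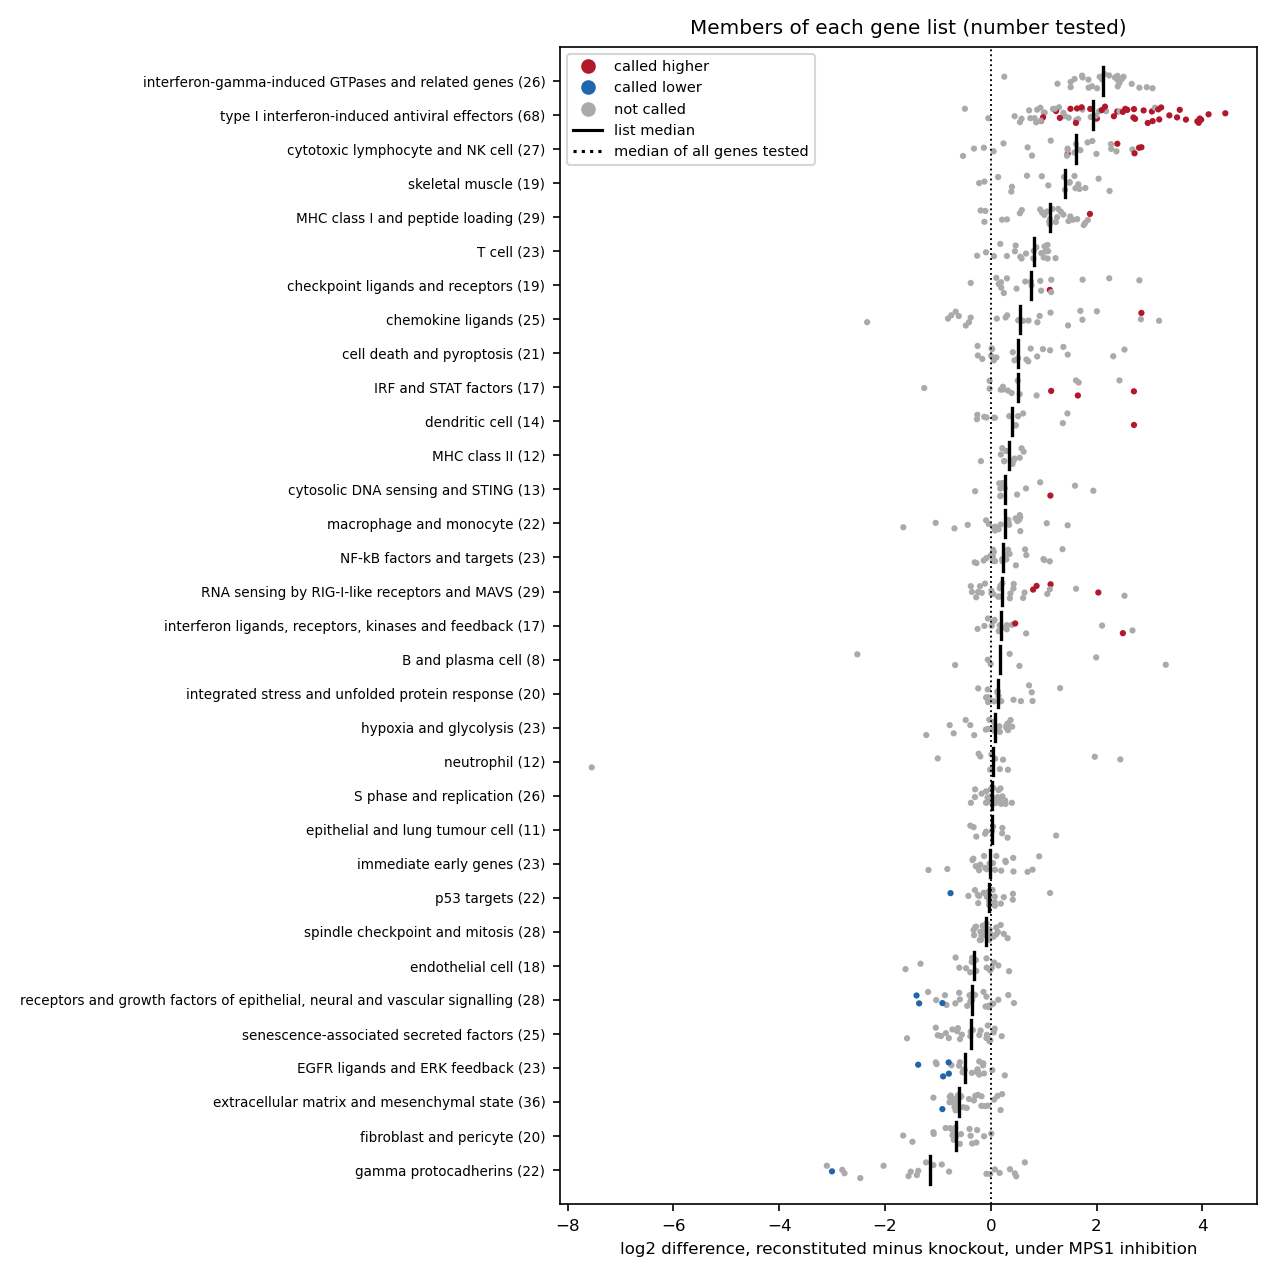
Log2 difference of reconstituted minus knockout tumours under MPS1 inhibition (horizontal axis) for each tested member of the lists with at least 8 tested members, 1 row per list with the number tested. Black bars are list medians and the dotted line the median of all genes. The interferon-gamma list (2.13), the type I effectors (1.93) and the cytotoxic list (1.61) have the highest medians, and the gamma protocadherins (-1.15) the lowest.

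The genes called lower in reconstituted tumours included ligands of the EGF receptor and feedback genes of the ERK pathway, which relays growth factor signals. Here 4 of 23 tested members were called lower (0.129% of all genes were) and none higher. The list was written with earlier results of these data known, so these shares do not test it. The median was -0.49, 21 of 23 were negative, and in 13 the reconstituted libraries lay below the knockout ones, as in 9.77% of all genes. Hbegf, a ligand of the EGF receptor, was read at 203, 157 and 161 CPM in the knockout and 86.8, 63.5 and 51.2 CPM in the reconstituted libraries (-1.37 ± 0.26 log2, SE, edgeR adjusted p = 0.0430). Every knockout library was well above every reconstituted one. Ereg, the ligand epiregulin, had 30.7, 24.9 and 26.7 CPM and 16.4, 15.4 and 15.6 CPM (-0.80 ± 0.14, adjusted p = 0.0369), the reconstituted libraries lying close together. Errfi1, an inhibitor of the receptor that its signal induces, had 170.2, 145 and 144 CPM and 93.8, 89.5 and 81.7 CPM (-0.79 ± 0.12, adjusted p = 0.0268). Rasgrp3, an activator of Ras, had 36.2, 28.2 and 25.6 CPM and 12.9, 18.7 and 16.6 CPM (-0.90 ± 0.17, adjusted p = 0.0472). Another ligand, amphiregulin (Areg), was at 20.3, 22.5 and 24.2 CPM and 10.6, 13.4 and 8.59 CPM and did not pass (-1.04 ± 0.21, adjusted p = 0.0549). The response element core was in 0 of the 17 promoters found, where it was in 3.86% of all tested genes with one, so the 0 is near the background.

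Other receptors and growth factors gave 3 calls among 28, all lower, where 0.129% of all genes were called lower. Their median was -0.36, and -0.04 in the control tumours. Fzd4, a receptor for Wnt ligands and norrin, was read at 5.46, 4.20 and 3.41 CPM in the knockout and 1.17, 1.51 and 2.25 CPM in the reconstituted libraries (-1.40 ± 0.25, edgeR adjusted p = 0.0321). Ntrk2, the receptor of the neurotrophin BDNF, had 3.26, 3.55 and 3.20 CPM and 1.03, 1.33 and 1.55 CPM (-1.35 ± 0.25, adjusted p = 0.0377), a low but separate pair of groups. Csf3, the growth factor of granulocytes G-CSF, had 10.8, 8.56 and 8.45 CPM and 4.49, 5.54 and 4.71 CPM (-0.91 ± 0.17, adjusted p = 0.0376).

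Gamma protocadherins are adhesion proteins encoded by variable first exons that are joined to shared last exons. Their median was -1.15, with 16 of 22 tested genes negative and 1 called lower (0.129% of all genes were). That gene, Pcdhga3, was read at 4.27, 9.31 and 7.42 CPM in the knockout and 0.474, 1.12 and 1.01 CPM in the reconstituted libraries (-3.00 ± 0.39, edgeR adjusted p = 0.0147). Since members share exons, how reads were divided among them is uncertain. Its neighbour Pcdhga8 spread widely within the knockout group, at 3.35, 9.63 and 5.61 CPM and 0, 0.812 and 1.33 CPM (-3.10 ± 0.84, adjusted p = 0.109). The groups overlapped for Pcdhgc3, at 107, 80.7 and 75.3 CPM and 74.5, 77.1 and 109 CPM. These 2 were picked after their values were seen. Summed over the 22 genes the level was 270.1, 254 and 258 CPM against 202, 236 and 243 CPM.

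Among 36 genes of the extracellular matrix and the mesenchymal state, Fn1 was the only call, where 0.129% of all genes were called lower. Fn1 encodes fibronectin and was read at 3965, 3502 and 3049 CPM in the knockout and 1555, 1849 and 2172 CPM in the reconstituted libraries (-0.92 ± 0.18, edgeR adjusted p = 0.0462). The median of the list was -0.59, with 32 of 36 negative, and -0.29 without reconstituted replicate 1. The fibroblast and pericyte markers had no call among 20 (smallest adjusted p 0.149, 4 at an unadjusted p below 0.05), 19 negative members and a median of -0.66, or -0.36 without that library. Col1a1 was at 2399.6, 4884 and 3664 CPM and 1077, 3234 and 2569 CPM, with overlapping groups (-0.67 ± 0.39, adjusted p = 0.341). Endothelial markers had no call among 18 either (median -0.31, smallest adjusted p 0.104, 5 at an unadjusted p below 0.05), Pecam1 being at 55.8, 81.8 and 65 CPM and 68.2, 83 and 60.4 CPM. DESeq2 called 1 fibroblast and 3 endothelial markers lower, and voom 0. Over all 17885 genes DESeq2 called 505 lower, and 3523 had an unadjusted p below 0.05 by edgeR. The part that fibroblast content plays in the lower matrix genes was not tested.

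Further genes called lower had no list, and Socs5, Nrarp and Efnb2 were picked among them after their values were seen. Socs5, a suppressor of cytokine and EGF receptor signals, was read at 145, 134 and 142 CPM in the knockout and 90.9, 99.2 and 103 CPM in the reconstituted libraries (-0.52 ± 0.08, edgeR adjusted p = 0.0210). Nrarp, a target and inhibitor of Notch signalling, had 123, 115 and 121 CPM and 81.9, 89.3 and 73 CPM (-0.55 ± 0.10, adjusted p = 0.0321), and Efnb2, the ligand ephrin-B2, 137, 121 and 117 CPM and 74.5, 82.9 and 83.3 CPM (-0.64 ± 0.11, adjusted p = 0.0319). Plk2, a polo-like kinase and the only call among 22 targets of p53, had 114, 99.8 and 92.6 CPM and 56.8, 72 and 52.2 CPM (-0.76 ± 0.13, adjusted p = 0.0321). Of all genes 0.129% were called lower. The transcription factor gene Sox4 (-0.48), the ubiquitin ligase gene Hace1 (-0.49), Trim16 (-0.73), Dennd2a (-0.94), Fam126b (-0.89), Cdc42ep3 (-0.59), Rhobtb3 (-0.50), Zswim6 (-0.52) and Asph (-0.34) made up the rest with Trdv4. Trdv4, a variable segment of the T cell receptor delta chain, had 7, 9 and 11 counts in the knockout libraries and 0 in every reconstituted library, which makes it at least 2.84-fold lower against a limit of 3 counts per library.

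Of the 93 genes called higher, 40 were in none of the lists, and those described here were picked after their values were seen. Several have known ties to interferon or RNA: Mov10, an RNA helicase, was at 66.1, 76.2 and 73 CPM and 177, 112 and 134 CPM (0.98 ± 0.17, edgeR adjusted p = 0.0316), and the Ifi200 family genes Mndal (1.37), Ifi207 (1.33) and Ifi214 (1.91) accompanied Ifi204. Hcls1, a signalling protein of blood cells, was at 68.1, 75.4 and 79.5 CPM and 119.7, 111 and 107 CPM (0.60 ± 0.09, adjusted p = 0.0268). Flt3l, the growth factor of dendritic cells, was at 7.73, 8.56 and 8.37 CPM and 17.5, 14.6 and 11.3 CPM (0.82 ± 0.15, adjusted p = 0.0430). Regulators of inflammation were called as well: Zfp36, which destabilises cytokine messenger RNA, at 36.4, 44.7 and 41 CPM and 101, 64.6 and 76.1 CPM (0.98 ± 0.16, adjusted p = 0.0274), and Tsc22d3, a glucocorticoid-induced gene, at 223, 231 and 253 CPM and 427, 398 and 458 CPM (0.86 ± 0.14, adjusted p = 0.0316). Rnf31, a subunit of the linear ubiquitin ligase beside Irf9 on chromosome 14, had 20.3, 23.1 and 20.3 CPM and 47.7, 32.8 and 36.7 CPM (0.88 ± 0.17, adjusted p = 0.0462).

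The same genes were read in the control tumours, whose libraries are not shared with this comparison but entered the same estimate of spread. Between control tumours 21 genes were called higher in reconstituted ones (0.117%) and 4 lower (0.0224%). Of the 93 genes called higher under the inhibitor, 92 were positive in the control tumours, where 50.4% of all genes were, with a median of 1.10 on the log2 scale. In 71 of them the control groups did not overlap in the same direction, which held for 15.6% of all genes, and 15 were called. Ifit3b had 3.54, Oas1g 3.22, Ifit1 3.10 and Samd9l 2.13 in control tumours, against 4.44, 3.98, 3.91 and 1.61 with the inhibitor. The single exception was Cst7, at -0.36 in control tumours. Picked for their small difference in the controls were Ifitm3 (0.26), Zfp36 (0.04), Mxd1 (0.07), Flt3l (0.08) and Ido2 (0.29). Because the genes were selected for their difference under the inhibitor, a smaller value in the controls is not by itself a difference between treatments.

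**Figure D5:**
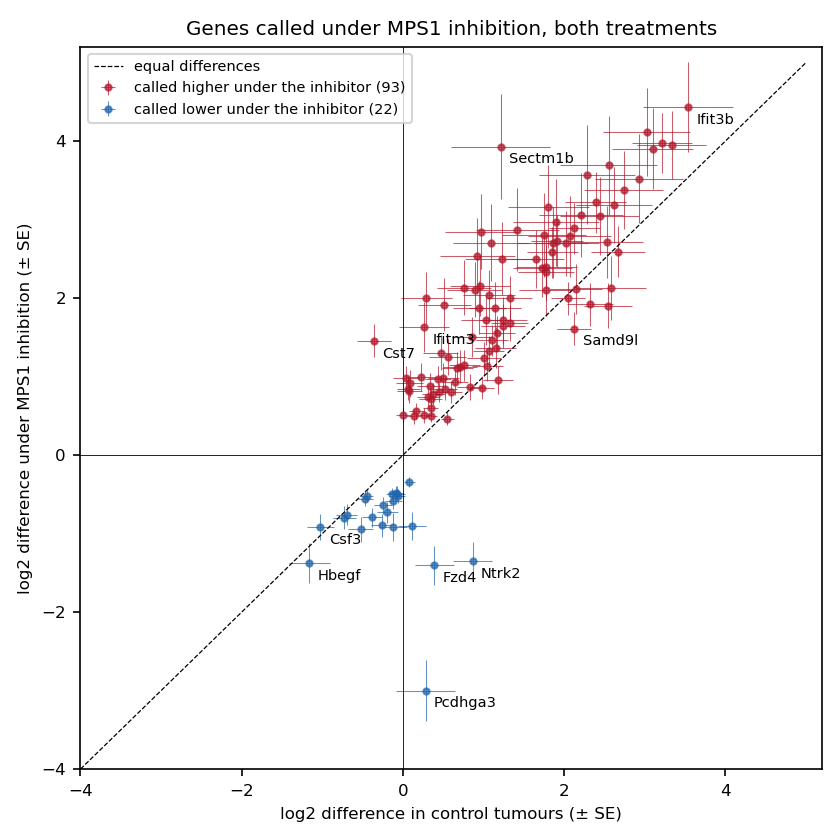
Log2 difference of reconstituted minus knockout tumours under MPS1 inhibition (vertical axis) against that in control tumours (horizontal axis), each with its SE, for the genes called under the inhibitor except Trdv4. Of the 93 genes called higher (red) all but Cst7, at -0.36, are positive in the controls, while among the lower genes (blue) Pcdhga3, Fzd4 and Ntrk2 are above 0 in the controls.

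The genes called lower were read in the control tumours in the same way. There 18 of the 23 were negative, where 49.6% of all genes were, the median was -0.19, 12 had groups that did not overlap in the same direction (15.5% of all genes), and 1, Csf3, was called (-1.02). Hbegf had -1.16, Ereg -0.73 and Plk2 -0.70 in control tumours. Fn1 had -0.12, Fzd4 0.39, Pcdhga3 0.28 and Ntrk2 0.86. The difference between the 2 treatments was tested as an interaction for every gene, and edgeR called none in either direction (0% higher and 0% lower, smallest adjusted p 0.144), with 4421 genes at an unadjusted p below 0.05. DESeq2 called 1365, and edgeR without reconstituted inhibitor replicate 3 called 4005. The genes with the smallest unadjusted p were the predicted gene Gm45927 (interaction -2.33), Ntrk2 (-2.22) and Pcdhga3 (-3.29), none of which passed. For the list medians, the type I effectors had 1.20 in control tumours against 1.93 with the inhibitor, the interferon-gamma list 0.84 against 2.13, MHC class I 0.21 against 1.12, the cytotoxic list 0.93 against 1.61, and the EGF receptor and ERK list -0.39 against -0.49. The difference between these medians was not tested.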

How the data were processed

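RNA was measured in 12 mouse tumours, and the 6 with the MPS1 inhibitor were compared by genotype. Per the labels' protocols, libraries were made with a stranded kit for messenger RNA. The deposited values are whole-number counts per gene and library, and the submitters' processing notes name Trimmomatic, HISAT2 and StringTie and the build GRCm38 (mm10), without versions or roles. Strand use and shared reads in the authors' counting are not described. From these counts, edgeR 4.0.16 in R 4.3.3 fitted a mean per group over all 12 libraries, after filterByExpr kept 17885 of 45777 genes and TMM scaling. Differences were tested with the quasi-likelihood F-test, adjusted over all tested genes and called below 0.05. SE is the log2 difference divided by the square root of F. Alternatives used DESeq2 1.42.0, limma 3.58.1 (voom), other scalings and filters, and fits without single libraries.

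Genes were named by these rules: Mavs and Ttk, the 12 largest rises and falls averaging 1 log2 CPM or more, up to 4 called members of a list (else the 2 of smallest p), the defining markers of cell types, the 3 smallest interaction p-values, and any gene called lower, by symbol. Genes picked otherwise are marked where they appear. The comparison, the 36 lists and these rules were chosen with earlier results of these data known. The fit was tested on simulated data, where it called 64 of 100 genes changed by 1 on the log2 scale and 95 of 100 changed by 2. Among the unchanged genes 9 were called. Positions and promoters came from RefSeq for GRCm38.p6, in which 45679 gene IDs were found.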

Additional observations from a re-analysis of the deposited data

How the results depend on the processing

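Of the 116 genes called under the inhibitor, DESeq2 gave 1243 (738 higher and 505 lower, 114 shared, 2092 adjusted p-values not given), and edgeR on the 6 libraries alone gave 64 (61 higher and 3 lower, 48 shared). Other scalings, filters, robust edgeR and voom gave 110 to 145. Leaving out single libraries gave 0 to 2816. In the control tumours the 25 calls became 41 with library totals alone, 827 with DESeq2, 15 with voom, 10 with their 6 libraries alone, and 0 to 80 when single libraries were left out. For the interaction the count of 0 became 1365 with DESeq2 and 0 to 4005 when single libraries were left out. No cause of these changes was tested. The groups share replicate numbers. Deviations of libraries with the same number correlated at 0.069, 0.076 and -0.081, so the numbers were not taken as pairs, and 2 of 3 reconstituted libraries correlated best with their own number. With the replicate number as a block, 43 genes were called under the inhibitor (36 higher and 7 lower, 41 shared), 15 in the control tumours and 0 for the interaction. Across the named genes and all alternatives 1977 values stayed on their side of the threshold, 282 lost a call, 66 gained one and none of the called ones changed sign. Of the list medians 782 moved by less than the spread between libraries and 10 by more. No scaling moved the median of all genes by over 0.1 (log2). With 0 to 3 counts per library, depth limits what can be said of the type I and lambda interferon genes.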

Other observations

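Of the 93 genes called higher, 48 lay in 16 groups with gaps of at most 500 kb, and the other genes did not. How often tested genes in general lie so close was not tested. Each group was bounded by its own first and last called genes. The share of calls within a group is therefore raised by construction and is no test, though 0.52% of all genes were called higher. Some groups are families of copies, and some pair genes of different families (Hap1 with Dhx58, Isg15 with Plekhn1). The Ifit genes on chromosome 19 (34550550 to 34662981) held 5 calls among 6 tested genes, and the Oas genes on chromosome 5 (120730333 to 120907544) 5 among 7. The Ifi200 genes on chromosome 1 (173521311 to 173880382) held 4 among 8, and the Phf11 genes on chromosome 14 (59276913 to 59365490) 3 among 3. Neighbours that are copies of each other may share reads, so these calls are not independent.

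Gene groups of proliferation and stress had few or no calls. Spindle checkpoint and mitosis genes had no call by edgeR among 28 (0 at an unadjusted p below 0.05, median -0.08), and Mki67, a marker of cycling cells, was at 279, 240.0 and 209.6 CPM in the knockout and 170.2, 186 and 237 CPM in the reconstituted libraries. S phase genes had no call among 26 (1 at an unadjusted p below 0.05, median 0.03), and hypoxia and glycolysis genes none among 23 (0 at an unadjusted p below 0.05, median 0.08). Stress response genes had none among 20 (6 at an unadjusted p below 0.05, median 0.13), immediate early genes none among 23 (6, median -0.02) and NF-kB targets none among 23 (8, median 0.22). Secreted factors of senescent cells had none among 25 (6, median -0.38), with 22 negative. Targets of p53 had a median of -0.03 but ran from -0.76 to 1.12, with 8 of 22 at an unadjusted p below 0.05 and 1 called lower (Plk2). The reconstituted libraries all lay above the knockout ones in 3 members and below them in 4, against 10.9% and 9.77% of all genes. DESeq2 called 0 of the mitosis and hypoxia genes, 1 S phase, 4 stress response and 6 NF-kB genes higher, 2 immediate early genes in each direction and 2 secreted factors lower, and voom called 1 secreted factor lower and 0 of the others.

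Red blood cell genes were lower without a call in 5 of 5 tested members (median -1.25, 1 at an unadjusted p below 0.05), with summed levels of 59.7, 246 and 294 CPM in the knockout and 112, 99.5 and 50.6 CPM in the reconstituted libraries. Skeletal muscle markers had no call among 19 (0 at an unadjusted p below 0.05), and their median of 1.40 became -0.94 without reconstituted replicate 1. Keratinocyte markers summed to 173 CPM in that library and to 37.4 to 60.4 CPM in the other 5, with no call among 7 (2 at an unadjusted p below 0.05, median 0.34). Sprr1a alone was at 163 CPM in that library, while Krt14 was at 1.44 CPM there, its lowest value of the 6 libraries. Of the adipocyte markers 2 were tested and neither was called (0 at an unadjusted p below 0.05, median -0.04). The epithelial and lung tumour markers had no call among 11 (2 at an unadjusted p below 0.05) and a median of 0.02. DESeq2 called 1 epithelial marker in each direction and 0 of the red blood cell, muscle, keratinocyte and adipocyte markers, and voom called 0 in these 5 lists. Beside this, 3523 of all 17885 genes had an unadjusted p below 0.05 by edgeR, and DESeq2 called 738 higher and 505 lower.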
